A study of Homo sapiens with 20 samples.

Results

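The comparison described here is that of QC6352 with its solvent in Rh41 cells, a human rhabdomyosarcoma line. Its members are the 6 Rh41 arrays of a series of 20 arrays, chosen by their titles: 3 of cells given DMSO and 3 of cells given 200 nM QC6352 for 48 h, each labelled a biological replicate. Total RNA (125 ng) was profiled on Clariom S human arrays, and 17687 genes with a symbol were tested, each by 1 probe set. The other 14 arrays are of Rh30 cells, a second rhabdomyosarcoma line, under DMSO, the same dose and time of QC6352, or knockdown of KDM4B by shRNA or KDM4C by siRNA with their controls. Rh41 and Rh30 are 1 established line each, so the arrays of a group are repeat cultures of 1 line and the spread among them does not cover differences between tumours.

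QC6352 is a small-molecule inhibitor of the KDM4 family of histone demethylases. These enzymes remove methyl groups from lysine 9 and lysine 36 of histone H3, of which the first mark is typical of silent chromatin and the second of the bodies of transcribed genes. Rh41 and Rh30 are lines of fusion-positive (alveolar) rhabdomyosarcoma, a childhood tumour with features of immature skeletal muscle, in which the fusion protein PAX3-FOXO1 acts as a transcription factor and keeps a set of target genes active.

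Each value below is a log2 signal as deposited, so a difference of 1 is a 2-fold change. The 6 arrays had medians of 7.22 to 7.25, and the 95th percentile of their negative-control probe sets reached at most 5.60, which is used as the level above which a signal stood clear of background. For a gene near that level in 1 group the change may be understated. By their mean over the 6 arrays, 10 of 11 skeletal muscle markers lay above background, with the embryonic myosin MYH3 the exception. ACTC1 (12.48) and CHRNA1 (12.47) were highest. Of the markers of PAX3-FOXO1 lines 8 of 8 lay above it. By their DMSO mean 12547 of all 17687 genes tested did so too, so such counts say little about cell identity by themselves. Markers of other cell types were divided. Above background were 4 of 10 for blood (TYROBP highest, at 7.44), 8 of 12 for epithelium (KRT19, 8.48), 7 of 10 for endothelium (EGFL7, 9.23, with VWF and CDH5) and 5 of 9 for fibroblasts (COL1A2, 9.15). Below it were PTPRC and CD3E for blood, EPCAM and CDH1 for epithelium, PECAM1 and KDR for endothelium, and FAP and LUM for fibroblasts, among others. Mean levels of these lists in the DMSO and QC6352 arrays were 5.68 to 5.77 and 5.72 to 5.88 for blood, 5.85 to 5.91 and 5.81 to 5.92 for epithelium, 6.30 to 6.32 and 6.27 to 6.44 for endothelium, and 6.25 to 6.30 and 6.11 to 6.29 for fibroblasts.

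After 48 h of QC6352, 4409 genes passed the threshold (limma, Benjamini-Hochberg adjusted p under 0.05), 24.9% of those tested, with 2472 higher (14.0%) and 1937 lower (11.0%). Most changes were small, with a median absolute log2 change of 0.46 among the genes called. Larger changes lay more often on the lower side: 129 genes rose and 256 fell at least 2-fold, and 6 rose and 28 fell at least 4-fold. The 3 QC6352 and 3 DMSO values did not overlap in 4408 of the 4409 genes called. These genes were selected by their p-values, which favours separate groups, so this count is no separate check of the calls. The share without overlap among all genes tested is not given here. The first principal component, with 67.79% of the variance, separated the 2 treatments, and arrays of 1 treatment correlated across genes at 0.9946 or more, against 0.9826 to 0.9854 between treatments. Genes are not independent replicates, so these correlations describe the arrays only.

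**Figure D1:**
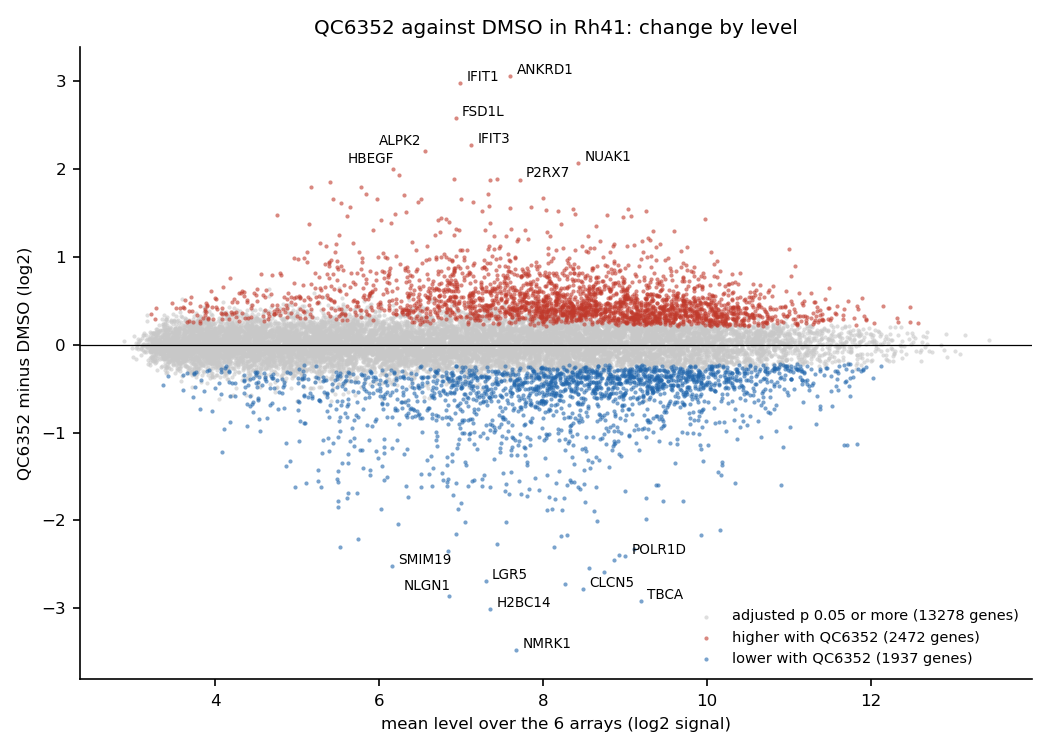
Change with QC6352 (vertical axis, log2) against mean level over the 6 Rh41 arrays (horizontal axis, log2 signal), 1 point per gene, coloured where the adjusted p is under 0.05. NMRK1, at -3.48, and ANKRD1, at 3.06, are the extremes, and the points beyond 2-fold are more numerous below the line (256) than above it (129).

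The targets of the compound were themselves measured. KDM4A was at 8.90, 8.91 and 8.79 with DMSO and at 9.26, 9.49 and 9.38 with QC6352, a rise of 0.51 ± 0.09 (SE, limma adjusted p = 0.00415) with no overlap of the groups. KDM4D, which was near background (6.34, 6.04 and 6.07), fell to 5.15, 5.61 and 4.83 (-0.95 ± 0.19, limma adjusted p = 0.00851). KDM4C rose by 0.43 ± 0.11 (limma adjusted p = 0.0255). That call was lost without DMSO replicate 2 (0.31), without QC6352 replicate 2 (0.43) and without QC6352 replicate 3 (0.38), with limma adjusted p of 0.0523 to 0.0853. KDM4B, at 6.68, 6.84 and 6.25 against 6.29, 6.39 and 6.06, overlapped between the groups (-0.34 ± 0.16, limma adjusted p = 0.162), but passed without DMSO replicate 3 (-0.51, limma adjusted p = 0.0291). KDM4E stayed below the background level in all 6 arrays (-0.15 ± 0.13). Messenger RNA levels do not measure the enzymes' activity.

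The largest rise belonged to ANKRD1, a muscle ankyrin-repeat protein and a widely used target gene of the transcriptional coactivator YAP and its DNA-binding partners, the TEAD factors. It was at 6.22, 6.03 and 5.95 with DMSO and at 9.15, 9.30 and 8.94 with QC6352. The change was 8.36-fold (log2 3.06 ± 0.11, limma adjusted p = 1.25e-05), and groups without overlap were a condition of this ranking. NUAK1, a kinase related to AMPK, went from 7.36, 7.34 and 7.47 to 9.35, 9.66 and 9.38 (4.21-fold). P2RX7, an ATP-gated ion channel, went from 6.94, 6.75 and 6.64 to 8.51, 8.74 and 8.71 (3.68-fold).

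ALPK2, an alpha-kinase expressed in heart and muscle, was at 5.44, 5.42 and 5.51, below background, and reached 7.59, 7.69 and 7.69 (4.60-fold). MYLK2, the myosin light chain kinase of skeletal muscle, went from 5.61, 5.08 and 5.12 to 7.19, 7.35 and 7.08, and FABP3, the fatty-acid binding protein of heart and muscle, from 6.61, 6.22 and 6.42 to 8.19, 8.39 and 8.30. MYOF, a membrane-fusion and repair protein, rose by 1.89 ± 0.21, with DMSO replicate 2 (5.44) below the other 2 controls (6.31 and 6.15). HBEGF, a ligand of the epidermal growth factor receptor, went from 5.38, 4.89 and 5.23 to 6.81, 7.47 and 7.22, and FSD1L rose 5.99-fold. The remaining genes among the 12 largest rises were IFIT1, IFIT3 and IFIT2, described with the interferon genes.

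The largest fall was that of NMRK1, a kinase that makes NAD from nicotinamide riboside. It was at 9.45, 9.30 and 9.48 with DMSO and at 5.66, 6.0 and 6.13 with QC6352, an 11.2-fold difference (log2 -3.48 ± 0.13, limma adjusted p = 1.14e-05) that took it close to background. TBCA, a tubulin-folding cofactor, went from 10.71, 10.63 and 10.62 to 7.60, 7.65 and 7.96 (7.57-fold lower), and CLCN5, a chloride-proton exchanger of endosomes, from 9.88, 9.85 and 9.90 to 7.0, 7.14 and 7.13 (6.88-fold lower). LGR5, a receptor for R-spondins in Wnt signalling, went from 8.75, 8.56 and 8.61 to 5.95, 5.94 and 5.98. NLGN1, a synaptic adhesion protein, fell by 2.87 with more spread among the treated arrays (5.01, 5.74 and 5.52) than among the controls (8.34, 8.32 and 8.21). POLR1D, a subunit shared by RNA polymerases I and III, fell by 2.40 and SMIM19 by 2.52.

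The 4 FAM72 genes of chromosome 1 fell together. FAM72A went from 9.61, 9.60 and 9.68 to 6.87, 7.08 and 6.76, a 6.63-fold difference, and FAM72D fell by 2.59, FAM72B fell by 2.54 and FAM72C fell by 2.45 on the log2 scale. FAM72A is known to oppose the uracil glycosylase UNG2. The 4 genes are near-identical copies and probe sharing among them was not checked, so they may report 1 signal. H2BC14, an H2B histone gene of chromosome 6, completes the 12 largest falls (-3.01 ± 0.11) and is described with the histones.

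**Figure D2:**
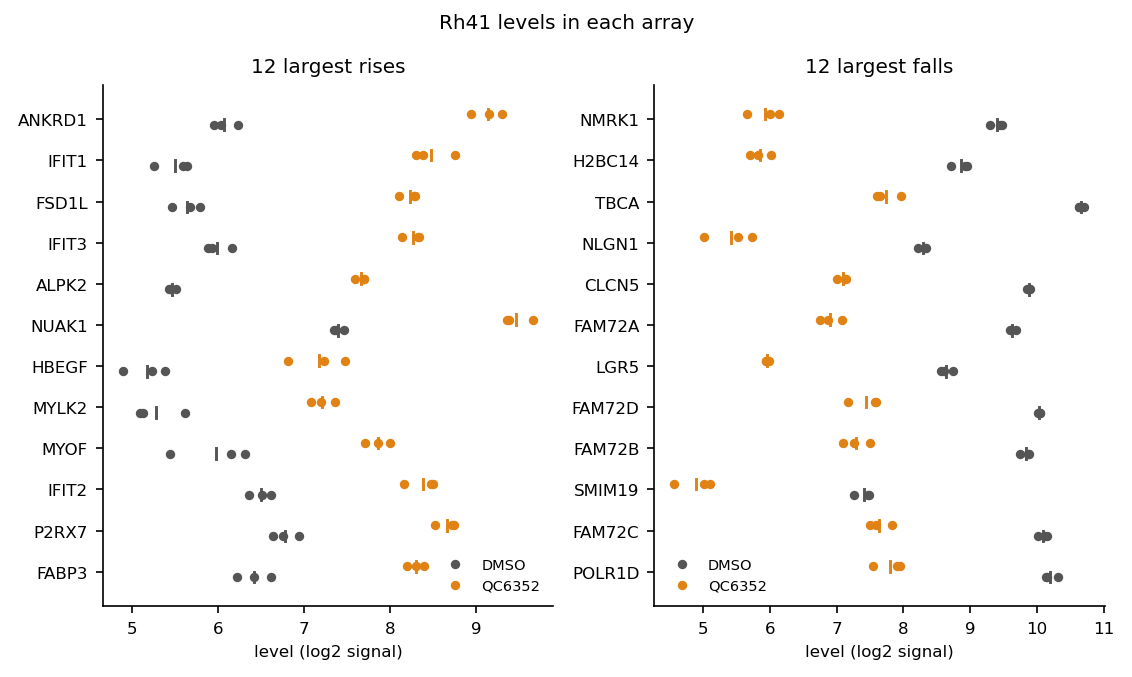
Level (horizontal axis, log2 signal) of the 12 largest rises and 12 largest falls in each of the 6 Rh41 arrays, with points for arrays and bars for group means. Genes were chosen among those whose groups do not overlap, and ANKRD1 lies at 5.95 to 6.22 with DMSO against 8.94 to 9.30 with QC6352.

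Gene lists were read against the share of all genes called, 14.0% higher and 11.0% lower, and against the median change of all genes, 0.02. Leaving aside the 6 marker lists, the highest share of members lower was that of the replication-dependent histones, followed by the PAX3-FOXO1 targets, and the highest share of members higher was that of the interferon genes. Among the marker lists, the small sets for PAX3-FOXO1 lines (62.5% of 8 lower) and skeletal muscle (54.5% of 11 higher) had shares as large as those of the targets and of the interferon genes. All 8 PAX3-FOXO1 line markers are also in the target list, so the first share is not a separate result. The skeletal muscle markers likewise overlap the muscle lists.

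**Figure D3:**
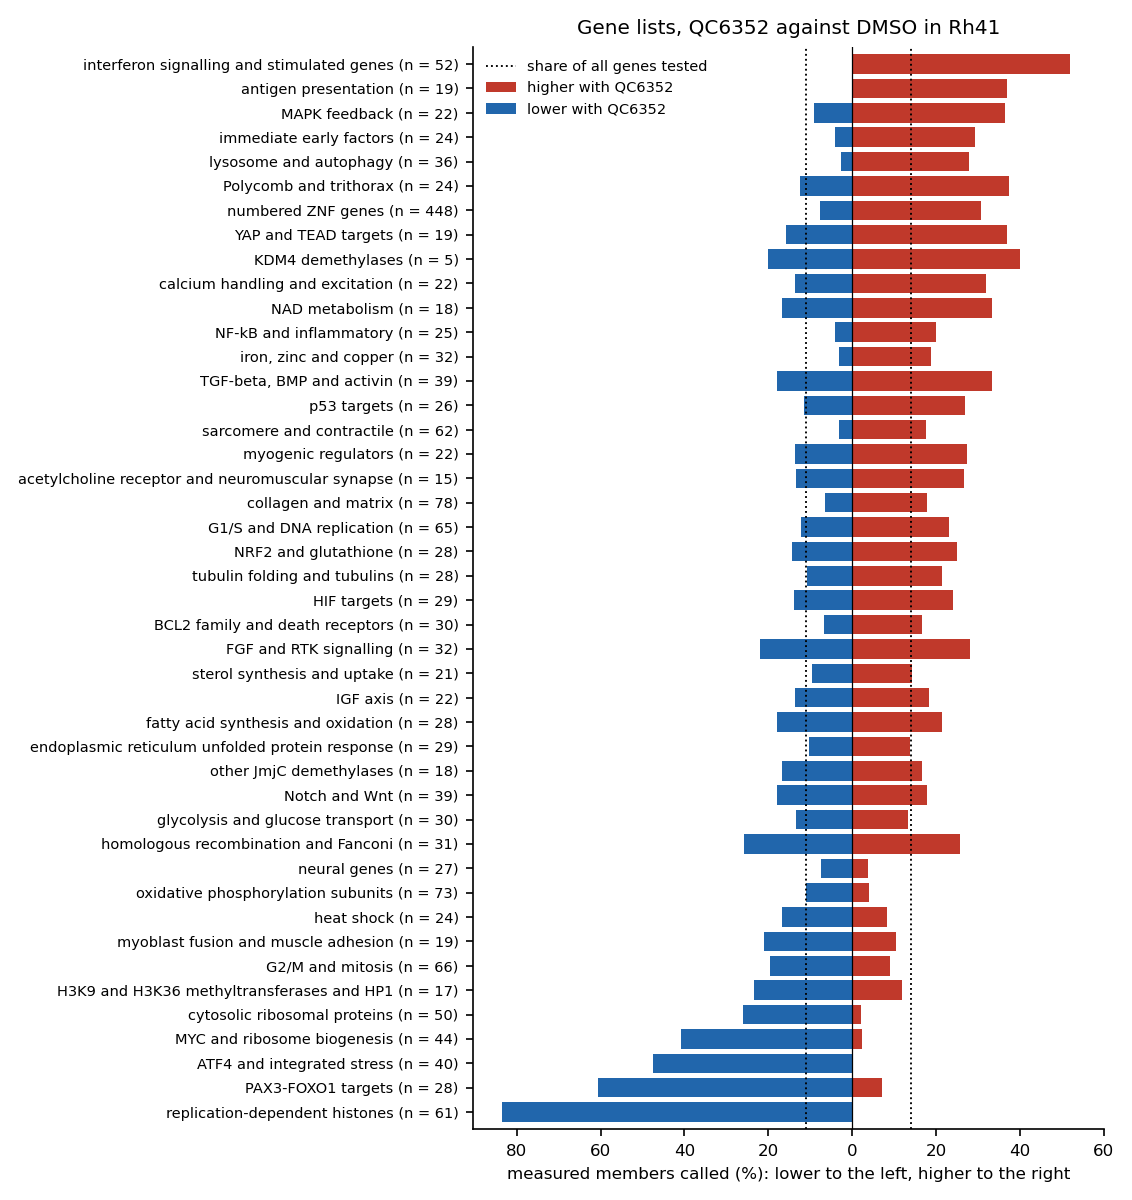
Share of measured members called higher (to the right) or lower (to the left) with QC6352 in each gene list (%), with dotted lines at the shares of all genes tested (14.0% and 11.0%). Histones reach 83.6% lower and interferon genes 51.9% higher.

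Replication-dependent histone genes, which supply the core and linker histones that package newly copied DNA in S phase, were lower throughout. Of 61 measured, 51 fell and 0 rose, and at a limma p under 0.05 without adjustment 55 fell and 0 rose, and all 61 had a negative change, with a median of -0.86. Leaving out any 1 array kept the count at 45 to 49. All 5 protein families took part: 5 of 6 H1 genes fell (median -1.58), 13 of 14 H2A genes (-0.66), 13 of 17 H2B genes (-0.92), 8 of 9 H3 genes (-1.08) and 12 of 15 H4 genes (-1.06). By chromosome, 40 of 49 genes on chromosome 6 fell and 11 of 11 on chromosome 1. The 1 gene on neither chromosome, H4C16 on chromosome 12, was at 6.07, 5.67 and 6.08 against 5.83, 6.08 and 5.86 (-0.02 ± 0.13).

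H2BC14 fell the most, from 8.92, 8.71 and 8.95 to 5.83, 5.71 and 6.02, an 8.07-fold difference. H3C11 went from 10.33, 10.32 and 10.15 to 7.66, 8.15 and 8.02, H2AC8 from 11.21, 11.30 and 11.12 to 8.97, 9.18 and 9.16, and H2AC4 from 8.18, 8.06 and 7.93 to 6.16, 5.92 and 6.02, with limma adjusted p of 1.71e-05 to 4.66e-05. Histone genes share long stretches of sequence, and cross-hybridisation among them was not checked, so they may report fewer signals than genes. Histone variants made outside S phase, listed after these values were known, did not move with them: 0 of 8 fell and 2 rose, namely H3-3B (0.35) and MACROH2A1 (0.36), while H2AX (-0.18), H2AZ1 (-0.01) and CENPA (0.01) did not pass. Among 6 factors that transcribe or process histone messages, CASP8AP2 rose by 0.47 ± 0.08, and NPAT (-0.06) and SLBP (0.02) did not pass.

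The H2BC14 promoter is shown because it belongs to the most reduced histone gene. The 250 bases before its start (chr6:27814772-27815021, plus strand, RefSeq on GRCh38.p14) hold the letters CCAAT 5 times on either strand, in capitals, at 77 to 236 bases before the start:
H2BC14: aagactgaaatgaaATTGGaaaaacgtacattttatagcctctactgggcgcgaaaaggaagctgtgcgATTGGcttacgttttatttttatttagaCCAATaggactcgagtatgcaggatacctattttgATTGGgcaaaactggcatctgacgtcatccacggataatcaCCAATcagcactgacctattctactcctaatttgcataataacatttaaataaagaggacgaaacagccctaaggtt
CCAAT, the core of the NF-Y motif, was found in the same window of 47 of 57 list genes with an entry (82.5%), against 33.0% of 27305 promoters in the table. It was as common in the 47 histone genes that fell (39, 83.0%) as in the 10 that were not called (8, 80.0%).

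Genes of the interferon response, which cells switch on when they sense foreign or misplaced nucleic acid, rose as a group. Of 52 measured, 27 rose and 0 fell (limma; without adjustment 30 had p under 0.05 and were higher and 3 were lower), with a median change of 0.39 and with 25 to 26 higher when any 1 array was left out. With DMSO 34 of the 52 were above background, beside 12547 of all 17687 genes tested. Among sensors and adaptors 3 of 7 rose: the RNA sensor RIGI went from 6.85, 6.64 and 6.97 to 8.32, 8.47 and 8.35, the DNA sensor CGAS rose by 0.55 and its adaptor STING1 by 0.80. The adaptor MAVS (-0.00), the RNA sensor IFIH1 (-0.02) and the endosomal receptor TLR3 (-0.07) did not pass. The interferon genes IFNB1 (0.33 ± 0.16, limma adjusted p = 0.18) and IFNL1 (0.08) did not pass either, and IFNB1 was below background in all 6 arrays. Of 3 transcription factors, IRF1 (0.86) and IRF9 (0.76) rose and IRF7 (0.20) did not pass.

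Of 33 effectors 18 rose, as did 4 of 7 genes with no role assigned here. IFIT1, an antiviral protein that binds foreign RNA ends, went from 5.59, 5.64 and 5.26 to 8.30, 8.76 and 8.38 (7.90-fold, limma adjusted p = 2.86e-05), from about background to well above it. IFIT3, its partner, went from 5.93, 6.16 and 5.88 to 8.13, 8.32 and 8.33 (4.84-fold), and IFIT2 from 6.51, 6.36 and 6.61 to 8.16, 8.50 and 8.48 (3.70-fold). These 3 genes lie on chromosome 10. PARP14 (1.85, among the genes with no role assigned), SAMD9 (1.71), IFI44L (1.66), HERC5 (1.49) and IFI6 (1.21) followed, as did EIF2AK2 (0.85), the RNA-activated kinase that halts translation. Other standard effectors did not pass: MX1 was at 4.56, 4.23 and 4.23 against 4.70, 4.17 and 4.03, and OAS1 differed by 0.02, both below background. Effectors above background with DMSO also failed to pass. Examples were IFITM3 (DMSO mean 12.14, change 0.04), IFITM2 (11.51, 0.10), GBP2 (7.21, -0.11) and OAS3 (6.47, -0.08).

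The promoters of IFIT1 and IFIT3 are shown because these genes rose most within the list. Capitals mark matches to the interferon response element, searched as GAAANNGAAA on both strands, in the 250 bases before each start (plus strand, RefSeq on GRCh38.p14). IFIT1 (chr10:89392373-89392622) has 2, at 116 and 103 bases before the start, and IFIT3 (chr10:89327747-89327996) has 2, at 156 and 122:
IFIT1: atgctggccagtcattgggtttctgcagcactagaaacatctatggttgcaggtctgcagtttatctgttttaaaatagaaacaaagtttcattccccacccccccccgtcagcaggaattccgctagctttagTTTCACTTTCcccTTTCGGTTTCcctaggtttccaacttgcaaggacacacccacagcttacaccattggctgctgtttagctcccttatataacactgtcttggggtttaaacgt
IFIT3: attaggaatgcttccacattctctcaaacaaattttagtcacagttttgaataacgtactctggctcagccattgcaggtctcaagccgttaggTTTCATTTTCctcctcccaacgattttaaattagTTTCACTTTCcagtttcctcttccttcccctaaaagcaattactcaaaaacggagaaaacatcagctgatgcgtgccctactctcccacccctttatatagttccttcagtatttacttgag
The letters were found in 22 of 40 list promoters with an entry (55.0%), in 14 of 22 that rose (63.6%) and in 8 of 18 that were not called (44.4%). Among promoters of all genes tested they were found in 2.6% of 14250, and in 2.4% of those of all genes called higher.

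Antigen presentation through MHC class I, which interferon is known to raise, moved the same way, with 7 of 19 genes higher and 0 lower (limma; without adjustment 8 and 1; median 0.21). With DMSO 10 of the 19 were above background. ERAP1, a peptide-trimming enzyme of the endoplasmic reticulum, went from 7.66, 7.72 and 7.68 to 8.69, 8.82 and 8.87 (1.10 ± 0.08). ERAP2 rose by 0.98, but its mean stayed below background with QC6352 (5.50). TAP2, a subunit of the peptide transporter, rose by 0.86 and B2M, the shared light chain, by 0.70.

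Targets of PAX3-FOXO1 fell in the majority: 17 of 28 measured were lower and 2 higher, with a median of -0.41, and 16 to 17 were lower when any 1 array was left out. SOX8, a transcription factor, went from 9.39, 9.26 and 9.23 to 7.67, 7.77 and 7.70 (2.99-fold lower, limma adjusted p = 2.37e-05). The receptor kinase ALK went from 8.34, 8.49 and 8.11 to 6.71, 7.24 and 7.22, and TFAP2B, a marker of fusion-positive tumours, from 9.48, 9.43 and 9.38 to 8.28, 8.21 and 8.36. MYCN (-0.49), IGF1R (-0.41) and MET (-0.39) also fell, whereas FGFR4 (-0.20 ± 0.07, limma adjusted p = 0.087) and MYOD1 (-0.21 ± 0.12, limma adjusted p = 0.276) did not pass.

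FOXO1 itself fell from 9.43, 9.45 and 9.41 to 8.28, 8.33 and 8.28 (-1.14 ± 0.07) and PAX3 rose from 9.46, 9.40 and 9.29 to 9.60, 9.78 and 9.85 (0.36 ± 0.09, limma adjusted p = 0.0225). The fusion message shares sequence with both genes and the probe positions were not checked, so these values cannot be divided between the fusion and the intact genes. The PAX3 and MYOG calls were the 2 higher ones in the list, and 0 were called without DMSO replicate 2 or 3 or QC6352 replicate 2 or 3 and 1 without DMSO replicate 1.

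**Figure D4:**
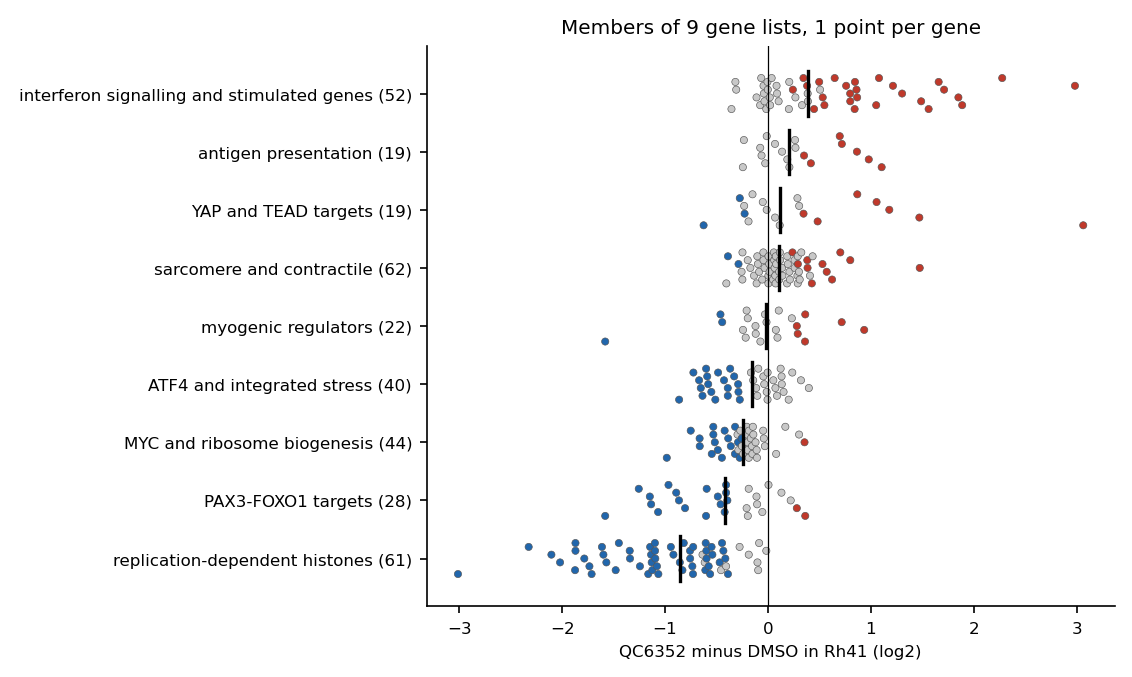
Change of each member of 9 gene lists with QC6352 in Rh41 (horizontal axis, log2), coloured red or blue where it rose or fell past the threshold and grey otherwise, with black bars at list medians and measured members in brackets. Histones (median -0.86) lie wholly to the left of 0, interferon genes (median 0.39) mostly to the right.

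Genes of muscle identity changed in both directions. Of 22 myogenic regulators 6 rose and 3 fell (27.3% and 13.6%, against 14.0% and 11.0% of all genes, median -0.02). The inhibitors of differentiation ID2 (0.94), ID1 (0.36) and ID3 (0.29) rose, as did MEF2A (0.72 ± 0.08, limma adjusted p = 0.000661), a cofactor of muscle transcription. MYOG, the differentiation factor myogenin, rose slightly, from 11.82, 11.87 and 11.72 to 12.01, 12.17 and 12.06 (limma adjusted p = 0.0374), and PITX3 (-0.46) and EYA1 (-0.44) fell with SOX8. With 1 array left out, 2 rises were called without DMSO replicate 3 or QC6352 replicate 2 or 3, and 3 without DMSO replicate 2. MYOD1, MYF5 (-0.22) and PAX7 (-0.07) did not pass.

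Sarcomere genes, which encode the contractile apparatus, rose in 11 of 62 cases and fell in 2 (median 0.11). These shares were 17.7% and 3.23%, against 14.0% and 11.0% of all genes, so the share of rises was near that of all genes. With DMSO 33 of the 62 were above background. TPM1, a tropomyosin, stood apart, from 8.20, 7.94 and 7.98 to 9.53, 9.51 and 9.50 (2.78-fold, limma adjusted p = 5.19e-05). MYBPC2 (0.80), MYL1 (0.70) and CAPN3 (0.62), all of fast or mature muscle fibres, followed. CAPN3 lay below background with DMSO and about at it with QC6352 (means 4.98 and 5.60). It lost its call without QC6352 replicate 1 (0.59) or QC6352 replicate 2 (0.55). TPM2 (-0.39) and the skeletal actin ACTA1 (-0.29) fell. Without QC6352 replicate 2, 7 sarcomere genes were called higher in place of 11, and there was 1 fall on leaving out any DMSO replicate or QC6352 replicate 1.

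The other muscle lists were mixed. Against 14.0% higher and 11.0% lower of all genes, the shares were 31.8% and 13.6% for calcium handling genes. They were 26.7% and 13.3% for neuromuscular synapse genes, and 10.5% and 21.1% for fusion and adhesion genes. Calcium handling genes rose in 7 of 22 cases and fell in 3, with the junction protein JPH2 higher (0.90) and the ryanodine receptor RYR3 lower, from 7.63, 7.37 and 7.82 to 5.98, 6.03 and 6.14 (2.94-fold). Neuromuscular synapse genes rose in 4 of 15 cases and fell in 2. CHRNE, the adult subunit of the acetylcholine receptor, fell from 6.35, 6.71 and 6.05 to 4.95, 5.06 and 5.49 while the agrin receptor LRP4 rose by 0.71. Fusion and adhesion genes rose in 2 of 19 cases and fell in 4, the latter led by ADGRB3 (-1.19) and DOCK1 (-0.92), both known to act in myoblast fusion. Rises in the fusion list numbered 0 without DMSO replicate 3 or QC6352 replicate 3 and 1 without DMSO replicate 2 or QC6352 replicate 1 or 2.

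Target genes and regulators of YAP and TEAD numbered 7 higher and 3 lower of 19 (median 0.11). ANKRD1 was joined by AXL, a receptor kinase, which went from 8.44, 8.23 and 8.35 to 9.72, 9.94 and 9.77 (2.77-fold, limma adjusted p = 6.09e-05). The matricellular genes CCN1 (1.18) and CCN2 (0.87) and CRIM1 (1.06) also rose. VGLL2 (-0.63), a muscle cofactor of TEAD, fell, with TEAD2 (-0.23) and AMOTL1 (-0.27). Of these 3 falls 1 was called without DMSO replicate 1 or 3 or QC6352 replicate 1 or 2.

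The ANKRD1 promoter is shown as that of the gene with the largest rise. Its 250 bases before the start (chr10:90921088-90921337, minus strand, RefSeq on GRCh38.p14) hold the TEAD letters GGAATG, searched on both strands and in capitals, at 220 and 128 bases before the start:
ANKRD1: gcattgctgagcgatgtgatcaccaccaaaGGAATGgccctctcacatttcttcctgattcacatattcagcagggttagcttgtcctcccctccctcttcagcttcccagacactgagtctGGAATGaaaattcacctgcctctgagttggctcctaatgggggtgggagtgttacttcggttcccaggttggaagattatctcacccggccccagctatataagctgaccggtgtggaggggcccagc
The letters occurred in 4 of 15 YAP and TEAD list promoters with an entry (26.7%), in 2 of the 8 called and 2 of the 7 not called, against 11.9% of all promoters in the table.

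Growth-factor and matrix genes changed both ways. TGF-beta, BMP and activin genes rose in 13 of 39 cases and fell in 7 (median 0.21), with the activin antagonist FST (1.08), the decoy receptor BAMBI (0.97) and the inhibitory SMADs SMAD6 and SMAD7 among the rises. Matrix genes rose in 14 of 78 cases and fell in 5 (17.9% and 6.41%, against 14.0% and 11.0% of all genes). Of these, THBS1 went from 8.32, 8.07 and 8.35 to 9.64, 9.87 and 9.60, and the protease inhibitor TIMP3 rose by 1.13. Receptor tyrosine kinase and FGF genes rose in 9 of 32 cases and fell in 7 (28.1% and 21.9%). In the IGF list 4 of 22 rose and 3 fell (18.2% and 13.6%, near the shares of all genes), with STC1 (1.67) and IGFBP3 (1.11) among the rises. MAPK feedback phosphatases and Sprouty genes rose in 8 of 22 cases and fell in 2, led by DUSP1 (0.99) and DUSP4 (0.96). Without QC6352 replicate 2 the MAPK list had 5 rises, and it had 1 fall whichever array was left out. The IGF list had 2 rises without DMSO replicate 3 or QC6352 replicate 2 or 3 and 1 fall without DMSO replicate 1 or 2 or QC6352 replicate 1 or 2, and the matrix list 3 falls without DMSO replicate 1 and 2 without DMSO replicate 3 or QC6352 replicate 1.

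Immediate early factors rose in 7 of 24 cases and fell in 1 (median 0.20), led by SGK1 (0.87) and KLF10 (0.64), with 4 higher without DMSO replicate 2 or 3 or QC6352 replicate 1 or 2. Inflammatory genes rose in 5 of 25 cases and fell in 1 (20% and 4%, against 14.0% and 11.0% of all genes). The chemokines CCL2 (0.68) and CCL20 (0.66), the latter near background, led the rises. Notch and Wnt genes rose in 7 of 39 cases and fell in 7 (17.9% each, against 14.0% and 11.0% of all genes). LGR5 led these falls and was followed by TCF7L2 (-0.69), a nuclear effector of Wnt, and 4 falls were called without DMSO replicate 1 or QC6352 replicate 1.

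Stress-response genes under ATF4, the factor that raises amino acid supply when translation is restrained, were lower. Of 40 measured, 19 fell and 0 rose (limma; without adjustment 19 and 4), with a median of -0.15. ATF4 itself went from 10.19, 10.17 and 10.27 to 9.58, 9.50 and 9.60 (-0.65 ± 0.07, limma adjusted p = 0.000685). The seryl-tRNA synthetase SARS1 (-0.86), the pseudokinase TRIB3 (-0.72), the cystine transporter SLC7A11 (-0.59) and the asparagine synthetase ASNS (-0.55) fell. The count was 12 without DMSO replicate 1, DMSO replicate 2, QC6352 replicate 1 or QC6352 replicate 2.

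Of 44 genes of MYC and ribosome biogenesis, 18 fell and 1 rose (median -0.25), among them MYC (-0.66 ± 0.09), from 9.96, 9.92 and 9.73 to 9.17, 9.15 and 9.29, and the nucleolar factors UTP14A (-0.98) and NOP16 (-0.75). Cytosolic ribosomal protein genes fell in 13 of 50 cases and rose in 1, with RPL10A lowest, from 11.06, 11.08 and 11.03 to 10.14, 10.23 and 10.21, then RPL24 (-0.58). Leaving out 1 array moved the first count to 10 (without DMSO replicate 1) or 11 (without DMSO replicate 2 or QC6352 replicate 2), and the second to 8 without DMSO replicate 1 or QC6352 replicate 2.

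Cell cycle lists other than histones moved less. DNA replication and G1/S genes rose in 15 of 65 cases and fell in 8 (median 0.09). CDKN1A, the p53-responsive inhibitor of cyclin-dependent kinases, went from 8.33, 7.71 and 7.91 to 8.80, 8.98 and 8.81, and RBL1, a pocket protein, rose by 0.70. The helicase subunits MCM6 (-0.68) and MCM2 (-0.55) fell. Without QC6352 replicate 3 the counts were 7 and 5, and without QC6352 replicate 1 there were 5 falls. Mitotic genes rose in 6 of 66 cases and fell in 13 (median -0.06), led by HMMR, from 9.20, 9.13 and 8.96 to 7.45, 7.45 and 7.58, and ASPM (-1.12), both spindle proteins, with 3 rises without DMSO replicate 2.

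DNA repair and survival genes included some of the larger single changes. The checkpoint kinase ATR went from 6.29, 6.57 and 5.87 to 4.65, 4.94 and 4.57 and RAD51B fell by 1.36, in a recombination list with 8 higher and 8 lower of 31. XPC, the damage sensor of nucleotide excision repair, went from 8.95, 9.08 and 8.91 to 6.92, 7.23 and 7.15 (3.68-fold lower). Of 26 p53 targets 7 rose, led by the kinase PLK2 (1.43), and 3 fell. In the BCL2 family, 5 of 30 rose and 2 fell (16.7% and 6.67%, against 14.0% and 11.0% of all genes). Its death-promoting member BCL2L11 (BIM) went from 8.25, 8.41 and 8.21 to 9.40, 9.45 and 9.40, and the survival gene BCL2 from 8.32, 8.21 and 8.17 to 7.34, 7.29 and 7.34. Neither pair of groups overlapped. The count of rises was 4 in the recombination list without DMSO replicate 2 or QC6352 replicate 3 and 5 without QC6352 replicate 2, and 4 in the p53 list without DMSO replicate 2 or QC6352 replicate 2. In the BCL2 list it was 3 without DMSO replicate 2 or 3 or QC6352 replicate 2, and 2 without QC6352 replicate 3, and its falls numbered 1 on leaving out DMSO replicate 2 or 3 or any QC6352 replicate.

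Chromatin genes changed in both directions. Other JmjC demethylases rose in 3 of 18 cases and fell in 3 (16.7% each), near the shares of all genes (14.0% and 11.0%). HR, a corepressor (0.88), and KDM7A (0.66) were highest. Writers and readers of histone H3 lysine 9 and lysine 36 methylation rose in 2 of 17 cases and fell in 4 (11.8% and 23.5%), with the silencing factors TRIM28 (-0.57) and TASOR (-0.43) lowest. Polycomb and trithorax genes rose in 9 of 24 cases and fell in 3, led by PCGF5 (0.93) and JARID2 (-0.86). Numbered zinc-finger genes, many of which encode repressors that recruit TRIM28, rose in 138 of 448 cases and fell in 34 (30.8% and 7.59%, median 0.15). The 2 largest changes there were falls, of ZNF25 (-1.69) and ZNF558 (-1.60). Without QC6352 replicate 2 or QC6352 replicate 3 the higher count was 91 or 88, and the lower count was 21 without DMSO replicate 1 or QC6352 replicate 1 and 19 without QC6352 replicate 3. The methylation list had 2 falls without QC6352 replicate 3, and 1 rise without DMSO replicate 2 or QC6352 replicate 2 or 3.

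In the NAD list, 6 of 18 genes rose and 3 fell: beside NMRK1, the nuclear NAD synthase NMNAT1 went from 7.44, 7.18 and 7.40 to 5.71, 5.84 and 6.07. In the tubulin list 6 of 28 rose and 3 fell (21.4% and 10.7%, against 14.0% and 11.0% of all genes). TBCD (-0.76), another folding cofactor, was next to TBCA. Lysosome and autophagy genes rose in 10 of 36 cases and fell in 1 (CD68 1.31, CTSK -0.83), with 6 higher without QC6352 replicate 2 or QC6352 replicate 3. NRF2 and glutathione genes rose in 7 of 28 cases and fell in 4, although NFE2L2, which encodes NRF2, fell by 0.67. There were 4 rises without DMSO replicate 3 or QC6352 replicate 2 and 3 without QC6352 replicate 3.

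The remaining lists covered energy, lipid, metal and protein-folding genes. Several shares lay near those of all genes (14.0% higher and 11.0% lower). Among these were glycolysis (13.3% each way), sterol (14.3% and 9.52%) and unfolded protein response genes (13.8% and 10.3%). Respiratory chain subunits rose in 3 of 73 cases and fell in 8 (NDUFV3 -1.0, NDUFB4 -0.55), glycolysis genes in 4 and 4 of 30 (the glucose transporter SLC2A3 1.16, PDK3 0.83), and HIF targets in 7 and 4 of 29 (NDRG1 0.53, HIF1A 0.50). Sterol genes rose in 3 of 21 cases and fell in 2 (CYP51A1 0.59, PMVK -0.62). Fatty acid genes rose in 6 of 28 cases and fell in 5, where FABP3 rose and CPT2, an enzyme of mitochondrial fatty acid import, fell by 1.03. Iron, zinc and copper genes rose in 6 of 32 cases and fell in 1 (STEAP3 0.71, SLC39A8 0.66). Unfolded protein response genes rose in 4 of 29 cases and fell in 3 (ERO1B 0.63, and ERN1 -0.67, a call lost on leaving out DMSO replicate 1 or 2 or QC6352 replicate 2 or 3). Heat shock genes rose in 2 of 24 cases and fell in 4 (HSPB8 0.50, and HSPA1L -0.51, lost on leaving out any QC6352 replicate), and neural genes rose in 1 and fell in 2 of 27 (RBFOX1 -1.17, POU4F1 -0.60).

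The calls in these small lists depended on single arrays. Respiratory chain falls numbered 5 without DMSO replicate 2, and its rises 1 without DMSO replicate 1 or 3 or QC6352 replicate 2 or 3. The single fall among immediate early factors and that among metal genes were lost on leaving out DMSO replicate 1 or 2 or any QC6352 replicate, and the single neural rise on leaving out any DMSO replicate or QC6352 replicate 2 or 3. HIF target falls numbered 0 without DMSO replicate 1 or QC6352 replicate 1 and 1 without QC6352 replicate 2 or 3. Glycolysis falls numbered 1 or 2 whichever array was left out, and its rises 2 without DMSO replicate 2 or 3 or QC6352 replicate 2 or 3. Fatty acid rises numbered 3 without DMSO replicate 3 or QC6352 replicate 3, and its falls 2 or 3 without DMSO replicate 2 or 3 or QC6352 replicate 2 or 3. Heat shock falls numbered 1 without DMSO replicate 1 or 3 and 0 without any QC6352 replicate. Of the marker lists, epithelium had 1 gene higher (CLDN4, 0.38), blood 1 higher (LYZ, 0.81, below background) and 1 lower (ITGAM, -0.39), and fibroblasts 1 higher (PDGFRB, 0.43) and 1 lower (FAP, -1.11). The call of CLDN4 was lost without DMSO replicate 1 or 2 or QC6352 replicate 2 or 3 and that of ITGAM without DMSO replicate 2 or 3 or QC6352 replicate 3, and endothelium had 0 in either direction (limma; without adjustment 3 higher and 0 lower). PAX3-FOXO1 line markers, all of them members of the target list, fell in 5 of 8 cases. As in any bulk sample, fewer cells of a type and less RNA per cell cannot be told apart.

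The same dose and time of QC6352 was applied to Rh30, and the difference of the 2 responses, Rh41 minus Rh30, was tested in a fit of 12 arrays. Rh30 groups were taken from the sample titles. For 10 of the Rh30 arrays the sample name in the description gives another group than the title, so every value that uses Rh30 depends on which label is right. By title, TBCA was at 9.90 to 10.11 in the Rh30 DMSO arrays and at 5.04 to 5.24 in the QC6352 arrays. The sample names put 2 arrays at 9.90 and 5.04 into 1 control-siRNA group. They build the Rh30 DMSO and QC6352 groups from arrays titled DMSO, control siRNA or KDM4C knockdown. In Rh30 6780 genes were called by title and 285 by sample name. By title, 3819 genes differed (limma, adjusted p under 0.05), 21.6% of those tested, with 2007 positive and 1812 negative. By sample name 1420 differed, 376 positive and 1044 negative, and 347 genes were called with the same sign under both labels and 352 with opposite signs. Of the 385 genes that changed at least 2-fold in Rh41, 329 had the same sign in Rh30 by title, 280 were also called there with that sign and 13 with the opposite sign, and 232 differed between the lines.

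Of the 24 largest Rh41 changes, 20 had the same sign in Rh30 by title. FSD1L (2.58 and 2.49), IFIT3 (2.28 and 2.18), FAM72C (-2.45 and -2.60) and POLR1D (-2.40 and -2.37) were close in Rh41 and Rh30, with differences of 0.09, 0.09, 0.14 and -0.03 on the log2 scale. With Rh30 by sample name the same differences were 2.51, 2.37, -2.65 and -2.30 and all passed (limma adjusted p of 4.41e-05 to 0.00459), so that closeness holds for the titles only. Others differed by more. ANKRD1 had log2 values of 3.06 in Rh41 and -0.72 in Rh30 (difference 3.78, limma adjusted p = 1.52e-07), MYLK2 of 1.93 and -0.72 (2.65), NUAK1 of 2.07 and -0.22 (2.30) and P2RX7 of 1.88 and -0.07 (1.95). LGR5 fell by 2.69 in Rh41 and differed by -0.05 in Rh30, a difference of -2.63, and H2BC14 was at -3.01 and -0.61, a difference of -2.40. In Rh30, where the 95th percentile of negative controls reached 5.4, LGR5 lay below background in all 6 arrays (4.06 to 4.43) and H2BC14 near it with DMSO (5.28, 5.99 and 5.87), so a fall in Rh30 could not be measured for LGR5 and may be understated for H2BC14. These 6 differences kept their sign and their call when Rh30 was grouped by sample name (3.22, 1.79, 2.00, 1.75, -2.80 and -3.32). If the titles are right, these values hold no QC6352 response of Rh30. They then lie close to the Rh41 changes alone and add no support for a difference between the lines.

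**Figure D5:**
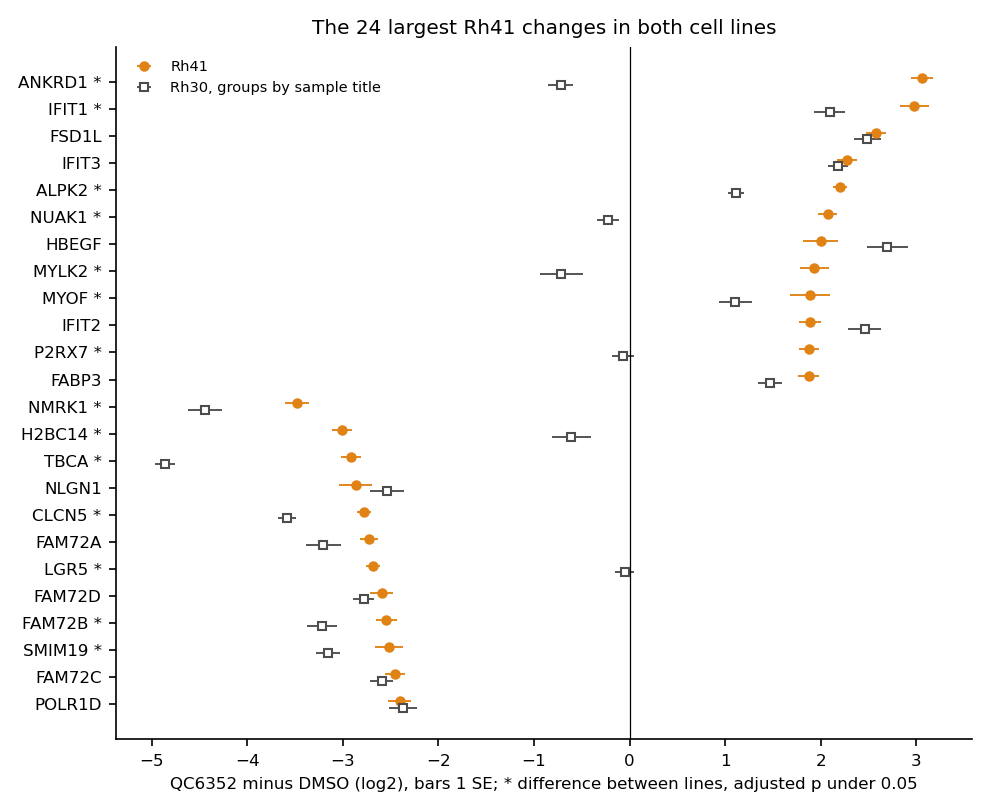
Change with QC6352 (horizontal axis, log2, bars 1 SE) of the 24 largest Rh41 changes in Rh41 (filled circles) and in Rh30 grouped by title (open squares), where stars mark genes whose difference passed. ANKRD1, NUAK1, MYLK2 and P2RX7 lie right of 2-fold in Rh41 and at or left of 0 in Rh30, and LGR5, below background in Rh30, is at -2.69 against -0.05.

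List counts in Rh30, by title, came from the fit of 12 arrays, and those in Rh41 from the fit of 6. Of all 17687 genes, 3719 were higher and 3061 lower in Rh30, against 2472 and 1937 in Rh41. Differences past the threshold were positive for 2007 and negative for 1812 of all genes. At the level of lists, the histones fell in both lines (51 of 61 in each, medians -0.86 and -1.08), with 25 positive and 4 negative differences past the threshold. Interferon genes rose in both (27 and 29 of 52, with 0 and 2 lower), with 9 positive and 8 negative differences. The ATF4 list fell in Rh41 (0 higher, 19 lower of 40) while in Rh30 17 were higher and 4 lower, and 20 of its genes had a negative and 1 a positive difference past the threshold. Immediate early factors were higher in 7 of 24 cases in Rh41 and in 20 in Rh30, with 18 negative differences. Skeletal muscle markers were higher in 6 of 11 cases and lower in 1 in Rh41, against 0 and 7 in Rh30, with 8 positive differences and 0 negative. The 6 Rh41 rises were 3 without DMSO replicate 1 or QC6352 replicate 3 and 2 without DMSO replicate 3 or QC6352 replicate 2. MYOG, chosen after its values were seen, rose by 0.28 in Rh41 and changed by -2.63 in Rh30 (difference 2.91, limma adjusted p = 1.43e-07), but by sample name the difference was 0.08 (limma adjusted p = 0.817). These list counts were not repeated under the other label.

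The 5 largest positive differences with separate responses were those of ANKRD1, HS2ST1 (3.57), MSTN (3.49), NEGR1 (3.11) and SKA2 (2.92). These last 4 fell by 3.51 to 3.97 in Rh30, while in Rh41 NEGR1 changed by -0.44, SKA2 by -1.04 and the others did not pass: MSTN, the muscle growth inhibitor myostatin, was at 11.13, 11.06 and 11.07 against 11.10, 11.09 and 11.0 in Rh41. The 5 largest negative differences were those of RFPL4AL1 (-4.15), RFPL4A (-3.97), SGK1 (-3.24), NR4A2 (-3.00) and RND1 (-3.00), of which SGK1 rose by 0.87 in Rh41 and the others had values of -0.13 to 0.29 there. RFPL4AL1, RFPL4A, NR4A2 and RND1 lay below background in all 6 Rh41 arrays, so a fall in Rh41 could not be measured and a rise may be understated. RFPL4A and RFPL4AL1 are close copies. Of these 10 differences, ANKRD1 alone had the same sign and a call by sample name, and SKA2 (-1.07) passed with the opposite sign. Of 73 differences named in all, 24 kept sign and call by sample name, 13 kept the sign only, and 36 took the opposite sign, 25 of them with a call.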

How the data were processed

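The deposited table holds log2 signals, 1 per probe set and array, made by the authors. Per the submitters' processing notes the tool was GCOS, and for its settings, the normalization and the build, the sources used here give nothing. RNA was extracted with an RNeasy kit and labelled by the Whole Transcript Plus assay, per the labels' protocols. Of 24351 probe sets, 17709 had 1 gene symbol, 0 several and 6642 none. For each gene the probe set with the highest mean over the 6 Rh41 arrays was kept, leaving out 22. The 2 group means were fitted on these arrays with limma 3.58.1 (R 4.3.3; lmFit and eBayes) and p-values adjusted by Benjamini-Hochberg over 17687 genes. The fit was tested on simulated data.

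The difference between lines was the interaction contrast over 12 arrays. Array number limits the precision. Members and lists were chosen with earlier results of these data known. Named were KDM4A to KDM4E, the 12 largest rises and falls with separate arrays, the 2 (in 4 lists 4) largest called members of each list, and the 5 largest differences each way with separate responses (each QC6352 array minus its line's DMSO mean). Other members named were chosen after their values were seen. Promoters (RefSeq, GRCh38.p14) matched 14250 of 17687 genes by Entrez gene ID. Alternatives were quantile normalization, median centring, a filter on low genes, trended and robust eBayes, array weights, all 20 arrays, a replicate block, every probe set, and leaving out each array.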

Additional observations from a re-analysis of the deposited data

Results flagged for a closer look

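The response to QC6352 differed between Rh41 and Rh30 in 72 of the 120 genes named by the rules above. The test was the interaction over 12 arrays (limma, adjusted p under 0.05, Rh30 grouped by sample title). MYOG, chosen after its values were seen, makes 73. Of all genes 21.6% passed, but most named genes were picked for large Rh41 changes and some for this same difference. The 2 shares therefore cannot be compared. Other genes mentioned above were not looked at here. In brackets stand the differences of the log2 changes, Rh41 minus Rh30, first with Rh30 by title and then with Rh30 by the sample name in the description. The sign and the call were the same under both labels for 24 genes, namely LGR5 (-2.63, -2.80), H2BC14 (-2.40, -3.32), CHRNE (-1.47, -1.39), POU4F1 (-1.28, -0.81), TFAP2B (-1.27, -1.24), CPT2 (-1.26, -1.0), TRIB3 (-0.95, -0.77), RYR3 (-0.93, -1.93), BCL2 (-0.92, -1.14), XPC (-0.62, -1.85), PLK2 (0.33, 1.46), HIF1A (0.49, 0.58), JPH2 (0.70, 0.80), MYOF (0.78, 2.42), FST (0.79, 0.71), IFIT1 (0.89, 2.98), THBS1 (1.03, 1.41), AXL (1.03, 1.52), ALPK2 (1.09, 2.48), TPM1 (1.10, 1.69), P2RX7 (1.95, 1.75), NUAK1 (2.30, 2.00), MYLK2 (2.65, 1.79) and ANKRD1 (3.78, 3.22). The sign was opposite by sample name and also passed the test for 25 genes, namely CD68 (-2.31, 1.16), ID2 (-1.67, 0.75), MYL1 (-1.40, 0.89), STC1 (-0.99, 1.71), DUSP1 (-0.90, 1.11), HSPB8 (-0.76, 0.95), BCL2L11 (-0.56, 0.93), KLF10 (-0.43, 0.56), ASPM (0.45, -1.35), TCF7L2 (0.58, -1.34), RPL24 (0.63, -0.67), H2AC4 (0.63, -1.94), SMIM19 (0.64, -3.00), FAM72B (0.68, -2.87), RPL10A (0.76, -1.07), H3C11 (0.80, -2.04), CLCN5 (0.80, -2.68), NDUFV3 (0.82, -0.83), RAD51B (0.90, -1.75), NMRK1 (0.96, -3.88), RBFOX1 (1.10, -1.24), DOCK1 (1.31, -1.23), H2AC8 (1.85, -1.82), TBCA (1.94, -2.96) and SKA2 (2.92, -1.07). It was opposite without passing for 11, namely SGK1 (-3.24, 0.26), ERO1B (-1.32, 0.32), ERAP2 (-0.79, 0.57), CCL2 (-0.50, 0.87), CCL20 (-0.49, 0.22), NDUFB4 (0.48, -0.58), JARID2 (0.49, -1.14), TASOR (0.57, -0.66), NEGR1 (3.11, -0.59), MSTN (3.49, -0.42) and HS2ST1 (3.57, -0.51). It was the same without passing for 13, namely RFPL4AL1 (-4.15, -0.38), RFPL4A (-3.97, -0.28), NR4A2 (-3.00, -0.36), RND1 (-3.00, -0.42), TRIM28 (-0.39, -0.39), KDM7A (0.53, 0.02), MEF2A (0.65, 0.59), CYP51A1 (0.69, 0.37), HR (0.71, 0.50), SLC39A8 (0.72, 0.50), STEAP3 (0.82, 0.53), IGFBP3 (1.14, 0.67) and MYOG (2.91, 0.08). For the last 49 genes the direction or the call of the difference depends on the label. Its size can depend on the label in any of the 73, as for IFIT1 (0.89, 2.98) among the first 24. The sample names build the Rh30 groups from arrays titled DMSO, control siRNA or KDM4C knockdown. If the titles are right, the values by sample name therefore hold no QC6352 response of Rh30. Whether such a value kept or changed its sign is then no test of a difference between the lines.

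By title, the change in Rh30 itself passed with the opposite sign to a called change in Rh41 for POU4F1, MYLK2, MYOG and ANKRD1. It did not pass in Rh30 for LGR5, CHRNE, TFAP2B, CPT2, TRIB3, BCL2, TRIM28, HIF1A, KDM7A, MEF2A, CYP51A1, JPH2, HR, SLC39A8, FST, STEAP3, IGFBP3, P2RX7 and NUAK1, whose change passed in Rh41. In all 6 Rh30 arrays LGR5, CHRNE, TFAP2B, KDM7A, SLC39A8 and IGFBP3 lay below background, and in all 6 Rh41 arrays RFPL4AL1, RFPL4A, NR4A2 and RND1, so their change in that line, and with it the size of the difference, was not measured. The Rh41 call of RFPL4A was lost on leaving out any DMSO replicate or QC6352 replicate 1 or 2. The groups held 3 arrays each, so no single array was tested as an outlier.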

How the results depend on the processing

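With all 20 arrays grouped by sample name, 1537 genes were called in Rh41 (858 higher, 679 lower) and 239 list members (132 higher, 107 lower), in place of 4409 and 674, while the fold changes were the same by construction. By title the 20 arrays gave 3478. A minimum of 1.5-fold left 1387 genes and of 2-fold 385. The difference between lines fell from 3819 to 1420 (376 positive, 1044 negative) with Rh30 by sample name, because other Rh30 arrays enter. Of the 10 largest differences 5 changed sign: HS2ST1 (-0.51), MSTN (-0.42), NEGR1 (-0.59), SKA2 (-1.07) and SGK1 (0.26). Of all 73 named, 36 changed sign.

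Without 1 array, 3271 to 3707 genes were called in Rh41 and 492 to 541 list members, and 3134 to 3836 differences. Replicate numbers did not pair the arrays (correlations of deviations -0.19, -0.06 and -0.08). With the replicate block 3232 genes were called (1808 higher, 1424 lower), with HSPA1L (adjusted p = 0.0674 by limma) among those lost. Other alternatives gave 4413 to 5545. Quantile normalization and median centring split the calls 2407 to 2140 and 2347 to 2094.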
